A study of Mus musculus with 6 samples.

Results

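The end of mouse chromosome 6 held 211 measured genes whose levels in 2 of 6 induced pluripotent stem cell (iPSC) clones were set against the other 4. The members were the genes on chromosome 6 of the deposited count table (GRCm38) with a start beyond 108859356 and a total of at least 200 reads over the 6 libraries. Of 1030 genes listed there, 551 had any read and 224 reached that total, and 13 of these were left out by name. The remaining 211, among 12024 genes of the whole table with the same total, spanned 37.0 Mb from 112563642 to 149563329 and comprised 185 protein-coding genes, 12 pseudogenes and 14 other RNA genes. The start of the stretch was placed where levels in knockout clones 2 and 3 shifted, so those levels chose the members and are given below as a description, with no test.

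Polyadenylated RNA was sequenced from 3 clones with a Cas9 knockout of Tet1, an enzyme that oxidises 5-methylcytosine, and from 3 non-targeted clones, to ask how loss of the enzyme alters expression. All 6 clones derived from the male line iPSC34.3, made from mouse embryonic fibroblasts whose strain label joins B6- Tet1tm1Kohx with B6;CBA-Tg(Pou5f1-EGFP)2Mnn/J, with the genotype label wt/wt;GFP/wt, and the knockouts carry in addition the label Tet1 Cas9 mut/mut. The line was grown for 14 passages, received Cas9 protein, a Tet1 guide and a single-stranded donor oligonucleotide, then an enhancer for 12 h. Picked colonies were grown for 4 passages and expanded on fibroblast feeders. The knockouts are clones 14, 30 and 33 (knockout 1, 2 and 3) and the non-targeted clones are 49, 51 and 52. The labels give the same treatment text for both groups. Each clone is a single isolate of 1 line, so any p-value measures only the spread between clones of that line.

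In a diploid cell the mRNA level of an autosomal gene generally follows the number of working copies, and genes whose level departs from that rule are called dosage-insensitive or buffered. The distal part of mouse chromosome 6 is dense in genes of general cell upkeep, among them ribosomal proteins, a condensin subunit and DNA repair genes, and it also holds clusters expressed in immune cells and nerve cells that stem cells hardly use. DNA was not measured in the data used here, and whether the number of copies differed between clones was not tested.

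As a check of the labels, Tet1 (ENSMUSG00000047146.15, chromosome 10, 62804570 to 62899118) stood at 365, 231 and 288 CPM (gene counts brought to the same library depth) in knockouts 1, 2 and 3. Non-targeted clones 1 to 3 had 1155, 965 and 1032 CPM. Between the groups this was a log2 difference of -1.84 ± 0.16 (SE), with an adjusted p of 0.0703 in edgeR's quasi-likelihood test and 9.06e-20 in DESeq2 (Benjamini-Hochberg). Library totals ran from 11937909 to 16189554 counts. Of 28 fibroblast markers, 26 were measured, and their median log2 ratio to the other clones was 0.52, 0.56 and 1.63 in knockouts 1 to 3 and -0.67, 0.09 and 0.00 in the non-targeted clones, with summed levels of 2266 to 3146 CPM in the knockouts and 2183 to 2523 CPM in the others. The 11 measured of 12 pluripotent cell markers had medians of -0.12, -0.39 and -0.99 against 0.15, -0.15 and 0.08, with sums of 3564 to 5322 and 5111 to 5691 CPM. Sox2, a defining pluripotency gene, is listed at 0 in every library; per the file headers, reads that overlap more than a single gene were not counted. In bulk RNA, fewer cells of a type and less RNA per cell cannot be told apart. Markers of primitive endoderm (6 of 11 measured) had medians of 0.57, 0.77 and 1.35 in knockouts 1 to 3 and -0.53 to 0.08 in the others, and those of trophoblast (5 of 7) had -0.12, 1.19 and 1.02 against -0.28 to 0.13.

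The 211 members took 1.49% and 1.45% of all counts in knockouts 2 and 3, and 2.81% to 2.90% in the other 4 libraries. For each member, the CPM in knockout 2 and in knockout 3 was divided by the mean of the other 4 libraries (knockout 1 and the 3 non-targeted clones), with 0.5 CPM added to both. The median log2 ratio was -0.96 in knockout 2 and -0.95 in knockout 3, that is 51.3% and 51.7% of the other clones. Knockout 1, set against the non-targeted clones, had a median of -0.04, and the 3 non-targeted clones had 0.03, -0.02 and 0.01. The 10970 genes of the other autosomes with the same minimum total had medians of 0.01 and -0.01 in knockouts 2 and 3, and the 362 genes on the rest of chromosome 6 had -0.09 and -0.10. The rest of chromosome 6 reached further down, with lower quartiles of -0.47 and -0.48 against -0.21 and -0.26 on the other autosomes. Its upper quartiles were 0.22 and 0.28 against 0.23 and 0.29.

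**Figure D1:**
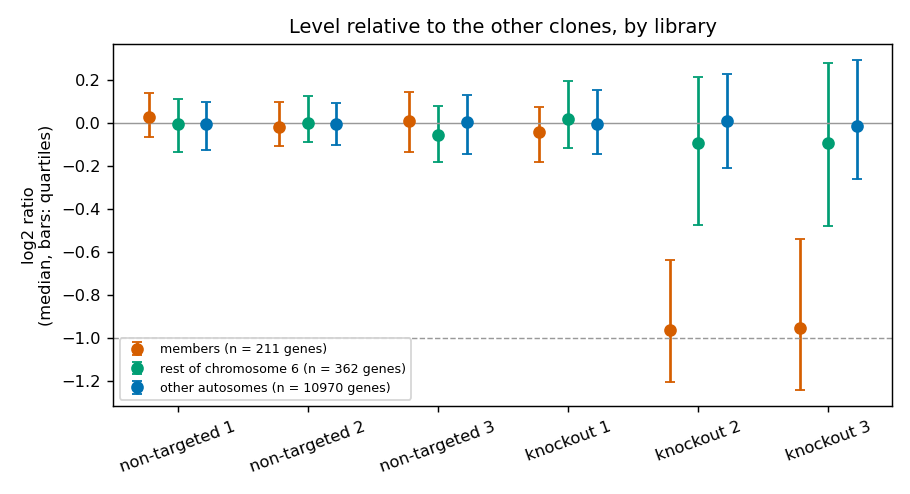
Median log2 ratio of a library's CPM to the other reference clones (vertical axis) for each of the 6 libraries (horizontal axis); points are medians over genes and bars run from the lower to the upper quartile. Members (orange) sit at -0.96 and -0.95 in knockouts 2 and 3 and within 0.05 of 0 in the other 4 libraries. The medians of the rest of chromosome 6 (green) and the other autosomes (blue) stay within 0.10 of 0 throughout. In knockouts 2 and 3 the lower quartiles of the rest of chromosome 6 are -0.47 and -0.48.

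A member was said to escape when its log2 ratio was above -0.5 (70.7% of the other clones) in both libraries, to be halved when both ratios lay between -1.5 and -0.5, and to be below a halved level when both lay under -1.5 (35.4%). By these limits 38 of 211 members escaped (18.0%; 83.4% of all 12024 genes did), 117 were halved (55.5% against 6.61%) and 17 were below (8.06% against 0.549%). The other 39 fell in different classes in the 2 libraries: 17 were halved in knockout 2 and below in knockout 3, 8 the reverse, 10 were halved in knockout 2 and escaped in knockout 3, and 4 the reverse. Since the stretch was chosen on these libraries, nothing is read from the contrast with all genes. Percentages of single genes given below are plain ratios of CPM, without the added 0.5. Judged on knockout 3 alone, 48 members escaped and 34 were below, and on knockout 2 alone 42 and 25.

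In 193 of 211 members (91.5%) the levels of the 2 clones were within 1.5-fold of each other, as in 90.7% of all 12024 genes, so this likeness is not particular to the stretch. In both clones 80 members lay between 40% and 60% of the other clones. In 175 members (82.9%) both clones were lower than every one of the other 4 libraries, against 25.9% of all genes, and in 5 members both were higher than every one, against 24.5%. Only 1 member was more than 2-fold higher in knockout 3 than in knockout 2, and 3 were more than 2-fold lower. The former was Emp1, which encodes a tetraspan epithelial membrane protein. It stood at 19.2 CPM in knockout 2 and 56.8 CPM in knockout 3, on either side of the narrow span of the other 4 (38.9, 39.6, 39.1 and 38.4 CPM). Tuba3a, an alpha-tubulin gene, stood at 8.51 and 2.87 CPM in knockouts 2 and 3 and at 12.8, 27.4, 20.1 and 30.3 CPM in knockout 1 and non-targeted clones 1 to 3.

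**Figure D2:**
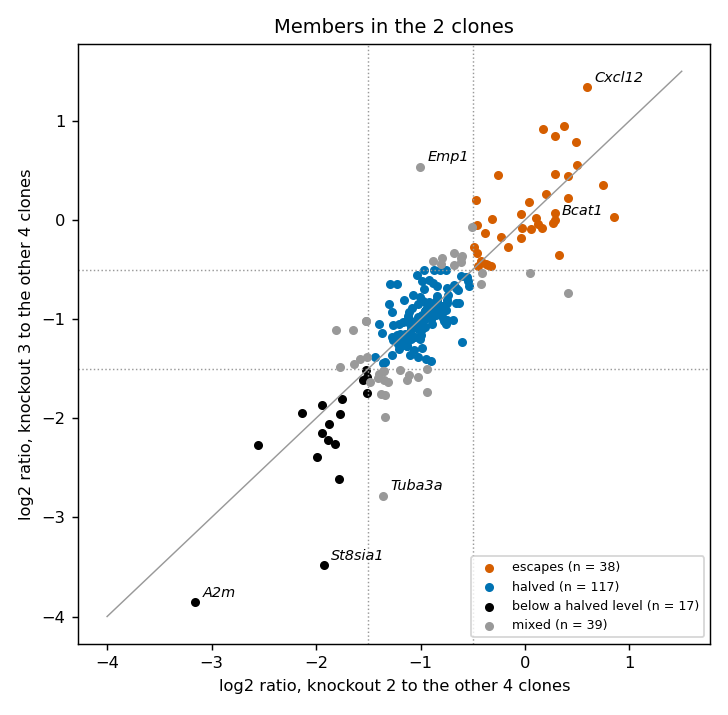
Log2 ratio of each member in knockout 3 (vertical axis) against knockout 2 (horizontal axis), both relative to the mean of the other 4 clones; colours give the class, dotted lines the class limits of -0.5 and -1.5 and the solid line equality. Most members cluster near -1 on both axes (117 halved), with 38 escaping members at the upper right and A2m and St8sia1 at the lower left.

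Of the 10 most abundant members, 8 were halved, Wnk1 was mixed and Etnk1 was below a halved level. Fkbp4, a co-chaperone of Hsp90 and the member with the highest level, had 953 and 900.0 CPM in knockouts 2 and 3. In knockout 1 and non-targeted clones 1 to 3 it had 1825, 2012, 2080.0 and 2188 CPM, so the groups were well apart. Ybx3, a cold-shock domain protein that binds RNA and DNA, had 698 and 666 CPM against 1239, 1245, 1244 and 1279 CPM. Ncapd2, a subunit of the condensin I complex that compacts chromosomes, had 444 and 430.3 CPM against 1000, 987, 920.1 and 995 CPM. In percent of the other 4, these were 47.0% and 44.4% for Fkbp4, 55.8% and 53.2% for Ybx3 and 45.5% and 44.1% for Ncapd2.

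Phb2, a prohibitin of the inner mitochondrial membrane, was at 400.2 and 400.3 CPM in the 2 clones and at 716, 776, 814 and 876 CPM in the others. The ribosomal protein gene Rpl32 was at 361 and 359 CPM against 749.7, 801, 755 and 777 CPM. Both lay close to an exact halving, at 50.3% in each clone for Phb2 and 46.8% and 46.6% for Rpl32. Strap, a WD-repeat protein of the SMN complex, had 48.3% and 44.1%. Setd5, a chromatin regulator of the SET family, kept the most of these 10 members, at 64.1% and 61.4%, with 355 and 340.5 CPM against 559, 553, 549 and 557 CPM. Wnk1, a kinase that regulates ion transport, kept 46.2% in knockout 2 and 33.9% in knockout 3 and was classed as mixed. Etnk1, ethanolamine kinase, had 302 and 305 CPM against 923, 979, 803 and 771 CPM and lay just below the lower limit, at 34.8% and 35.1%. Rps4l, annotated as a pseudogene at 314 and 296 CPM against 656, 795, 745 and 843 CPM, is near-identical to other ribosomal protein S4 copies and its level is uncertain.

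**Figure D3:**
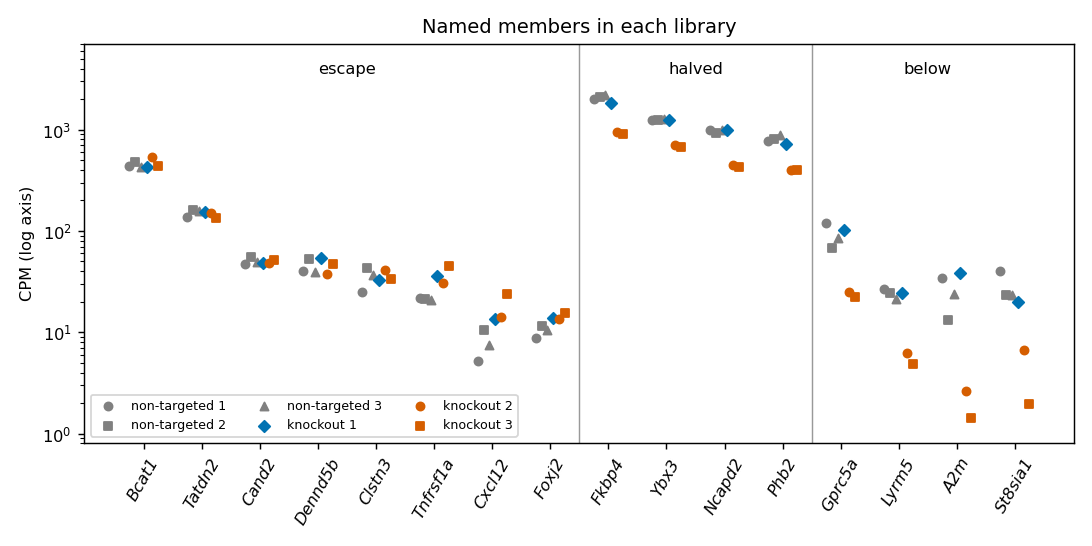
CPM (vertical, log axis) of 16 members in each of the 6 libraries; grey symbols are the non-targeted clones, blue knockout 1 and orange knockouts 2 and 3. Among the 4 halved and the 4 below-level members the orange symbols lie under all others (Fkbp4 at 953 and 900.0 CPM against 1825 to 2188), while in the 8 escaping members they mix with or exceed the rest (Tatdn2 at 149 and 134 CPM against 136 to 161).

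Of the 38 members that escaped, 28 were protein coding, 9 were pseudogenes and 1 was another RNA gene. Their levels overlapped those of the other clones in several ways. In 12 both libraries lay within the range of the other 4, in 5 both lay above it, in 7 both lay below it yet above the escape limit, and 14 showed another pattern. The 95% counting interval of the level was above 50% of the other clones in both libraries for 36 of the 38, and above 70.7% for 22; these intervals cover counting error only, not the spread between clones. The ratio was positive in both libraries in 15 and negative in both in 13.

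Bcat1, the cytosolic branched-chain aminotransferase and the most abundant member to escape, had 538 CPM in knockout 2 and 439.8 CPM in knockout 3. The other 4 had 423, 435, 482 and 426 CPM, so knockout 2 lay above them all and knockout 3 within their range. In percent of the other clones this is 122% (95% counting interval 118 to 125) and 99.6% (96.5 to 102). Tatdn2, a nuclease of the TatD family, had 149 and 134 CPM against 155, 136, 160.5 and 158 CPM, or 97.6% and 88.1%. Cand2, an inhibitor of cullin ligase assembly, had 48.6 and 52.2 CPM against 48.4, 47.0, 55.2 and 49.5 CPM, and both values lay inside the range of the others. Of these 3 genes, Bcat1 lay above all other 4 in knockout 2, Tatdn2 lay just under all 4 in knockout 3, and the remaining values were inside their range.

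The promoters of 4 members are shown for the 2 most abundant of these escaping genes, for Fkbp4 as the most abundant halved gene and for Etnk1 as the most abundant gene below a halved level. They are RefSeq promoter windows (GRCm38.p6, 250 bases before to 50 after the gene start), read 5′ to 3′ on the gene's strand, with each CG dinucleotide in capitals.
Bcat1 (chr6:145076108-145076407, minus strand, escapes): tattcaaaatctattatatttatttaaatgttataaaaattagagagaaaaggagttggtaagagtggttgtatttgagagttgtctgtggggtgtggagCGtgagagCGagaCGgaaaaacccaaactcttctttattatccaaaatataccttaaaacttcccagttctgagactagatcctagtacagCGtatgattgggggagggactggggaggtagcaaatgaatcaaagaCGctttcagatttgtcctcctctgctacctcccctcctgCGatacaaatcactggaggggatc
Tatdn2 (chr6:113696800-113697099, plus strand, escapes): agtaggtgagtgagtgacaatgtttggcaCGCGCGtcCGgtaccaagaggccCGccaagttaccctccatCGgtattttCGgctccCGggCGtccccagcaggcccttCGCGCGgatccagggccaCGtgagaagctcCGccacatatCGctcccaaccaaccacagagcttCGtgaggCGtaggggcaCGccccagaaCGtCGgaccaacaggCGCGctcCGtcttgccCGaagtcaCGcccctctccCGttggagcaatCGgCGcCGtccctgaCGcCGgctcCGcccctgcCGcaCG
Fkbp4 (chr6:128438607-128438906, minus strand, halved): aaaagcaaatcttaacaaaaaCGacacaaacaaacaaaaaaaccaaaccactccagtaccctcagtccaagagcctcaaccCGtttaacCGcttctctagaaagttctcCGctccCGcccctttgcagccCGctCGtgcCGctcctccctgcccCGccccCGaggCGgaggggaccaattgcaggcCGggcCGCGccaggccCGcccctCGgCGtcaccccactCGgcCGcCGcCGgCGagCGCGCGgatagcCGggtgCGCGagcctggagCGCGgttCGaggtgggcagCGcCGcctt
Etnk1 (chr6:143166980-143167279, plus strand, below): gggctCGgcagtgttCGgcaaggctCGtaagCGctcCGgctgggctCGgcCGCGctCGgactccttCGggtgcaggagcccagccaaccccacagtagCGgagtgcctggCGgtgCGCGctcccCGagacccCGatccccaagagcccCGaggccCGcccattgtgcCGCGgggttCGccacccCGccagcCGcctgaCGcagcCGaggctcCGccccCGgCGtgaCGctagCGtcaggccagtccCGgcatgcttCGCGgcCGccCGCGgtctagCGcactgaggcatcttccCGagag

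The windows of Tatdn2, Fkbp4 and Etnk1 hold 34, 33 and 38 CG dinucleotides and that of Bcat1 holds 6. The motif searched was CG, which reads the same on both strands; 94.6% of all 32841 promoters of the table hold at least 1 and 52.1% hold more than 6. Of the escaping genes, then, Tatdn2 has a CG-rich window like the halved and the below-level gene shown. The window of Bcat1 holds fewer than these, near the median of 7 over all promoters. No comparison of promoters between classes is made, because only 143 of 211 members (67.8%) had an entry, which is under the 80% required, and such a check is void.

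Cxcl12, Tnfrsf1a and Ltbr are among the 6 of 21 members of the signalling list that escaped. Cxcl12, the chemokine that binds Cxcr4, had 14.1 and 24.0 CPM in knockouts 2 and 3 and 13.47, 5.16, 10.6 and 7.49 CPM in knockout 1 and non-targeted clones 1 to 3. Tnfrsf1a, the main receptor for tumour necrosis factor, had 30.5 and 45.1 CPM against 35.8, 21.8, 21.2 and 20.6 CPM. Ltbr, the lymphotoxin beta receptor, had 9.75 and 16.7 CPM against 11.6, 5.40, 10.1 and 7.15 CPM. In these 3 genes knockout 3 was the highest library, and knockout 1 was higher than each non-targeted clone.

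In percent of the other 4 clones, Cxcl12 reached 154% and 261%, Tnfrsf1a 123% and 181% and Ltbr 114% and 194%. Of the surface, adhesion and matrix list, in which 4 of 12 escaped, Mgp, the matrix Gla protein that inhibits calcification, reached 172% and 130%, and P3h3, a collagen prolyl 3-hydroxylase, 145% and 181%. Bhlhe41, a repressor of the circadian clock, reached 132% and 199.7%, with 9.25 and 14.0 CPM against 3.90, 4.11, 11.2 and 8.81 CPM. Fibroblast markers were also higher in these libraries, with medians of 0.56 and 1.63 in knockouts 2 and 3, and their part in these values was not tested. Of the 28 protein-coding genes that escaped, 18 were higher in knockout 3 than in knockout 2, and 54 of the 117 halved members were.

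Other members that escaped lay within the range of the other clones or near it. Clstn3, calsyntenin-3, a synaptic adhesion protein, had 41.2 and 33.4 CPM against 32.5, 25.2, 42.6 and 36.6 CPM. Dennd5b, an exchange factor for Rab GTPases, had 37.3 and 46.9 CPM against 54.6, 40.2, 52.6 and 38.9 CPM. Foxj2, a forkhead transcription factor, had 13.6 and 15.4 CPM against 13.7, 8.78, 11.4 and 10.4 CPM. Clstn3 therefore lay inside the others' range, Dennd5b had knockout 2 just under it, and Foxj2 reached 123% and 139% of their mean.

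Prrt3, a proline-rich transmembrane protein, stood at 103% and 114% of the other clones, and Creld1, a protein with epidermal growth factor repeats known from heart development, at 108% and 102%. Bicd1, an adaptor of the dynein motor and the last member before the chromosome end, had 13.9 and 23.0 CPM against 14.7, 12.4, 24.3 and 15.5 CPM. Cacna1c, the pore subunit of an L-type calcium channel, had 3.55 and 3.73 CPM against 4.06, 2.18, 1.74 and 1.53 CPM, so that all 3 knockout clones exceeded all 3 non-targeted ones.

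In a last subgroup of 7 escaping members both clones lay under all others yet above the limit. Sec13, a subunit of the COPII coat and of the nuclear pore, had 118 and 118 CPM against 149.8, 155, 153 and 174 CPM (74.8% and 74.9%). Etv6, an ETS-family repressor, had 87.9 and 95.6 CPM against 117, 119.7, 128 and 118 CPM. Emc3, of the endoplasmic reticulum membrane insertion complex, had 73.2% and 72.04% and lay just inside the limit. Jagn1, an endoplasmic reticulum protein needed by neutrophils, had 78.0% and 72.8%. Their levels fell between those of the other clones and an exact halving. Beside the limit, Gm26982 stood just inside at log2 ratios of -0.49 and -0.27, and Arhgdib just outside at -0.50 and -0.07.

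Members below a halved level were led by A2m and St8sia1. A2m, the protease inhibitor alpha-2-macroglobulin, had 2.64 and 1.44 CPM in knockouts 2 and 3 and 38.03, 34.5, 13.3 and 24.1 CPM in the other 4, which is 9.62% (95% counting interval 6.78 to 14.1) and 5.22% (3.29 to 8.38). St8sia1, the sialyltransferase that makes ganglioside GD3, had 6.69 and 1.94 CPM against 19.8, 40.5, 23.2 and 23.5 CPM, or 25% and 7.24%. In both genes all of the other 4 libraries were higher than knockouts 2 and 3. The counting intervals excluded 35.4%, but they cover counting error only, and both genes were picked for their low values in these libraries.

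Gprc5a, an orphan receptor induced by retinoic acid, had 25.02 and 22.03 CPM against 101, 119.5, 67.1 and 84.6 CPM. Lyrm5, a mitochondrial factor of the LYR family, had 6.19 and 4.81 CPM against 24.3, 26.4, 24.5 and 21.4 CPM. Prmt8, an arginine methyltransferase, stood at 23.4% and 24.9% of the other clones, and Bcl2l14, a member of the Bcl2 family, 22.1% and 15.6%. Lockd, a long non-coding RNA, had 1.07 and 1.29 CPM against 4.21, 7.49, 6.98 and 7.01 CPM. In each of the 17 members of this class both clones were lower than all other 4. Others of the class, named after their values were seen, were Etnk1, C2cd5, Tm7sf3, Eps8, Cecr5, Vwf, Crebl2, Gm10069 and Gm44293, at 12.97% to 35.1% of the other clones. Pluripotent cell markers had medians of -0.39 and -0.99 in the same 2 libraries, and their part in these low values was not tested.

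Escape varied with expression level. In the lowest quartile of members by mean CPM (2.55 to 10 CPM) 17 of 53 escaped (32.1%), in the second 13 of 53 (24.5%), in the third 5 of 52 (9.62%) and in the highest (129 to 1660 CPM) 3 of 53 (5.66%). With a minimum total of 1000 counts, the shares in the lowest and highest quartiles of the 148 remaining members were 21.6% and 2.70% (37 members each). The 3 in the highest quartile were Bcat1, Tatdn2 and Sec13. The median level was 10.2 CPM for escaping, 80.7 CPM for halved and 19.0 CPM for below-level members. Divided by the length of the exons, the medians were 4.01, 13.5 and 4.85 CPM per exonic kilobase. In quartiles of this value, the shares that escaped ran from 28.3% in the lowest through 18.9% and 13.5% to 11.3% in the highest. Reads were counted over whole genes, introns included, so this scale compares genes only roughly.

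Genes elsewhere spread more at low levels too. On the other autosomes, the share of genes as far above their own median in both libraries as an escaping member is above the members' median was 22.5%, 12.5%, 4.55% and 2.16% in the same 4 ranges of level, and 10.8% in all against 18.0% of members. Below the median the shares were 5.81% of those genes against 8.06% of members. On the high side the share of members was larger than that of other autosomes in each of the 4 ranges, with no test of that difference. The interquartile range of the members' log2 ratios, from the lowest to the highest quartile of level, was 0.81, 0.88, 0.46 and 0.29 in knockout 2 and 0.98, 0.70, 0.65 and 0.37 in knockout 3.

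**Figure D4:**
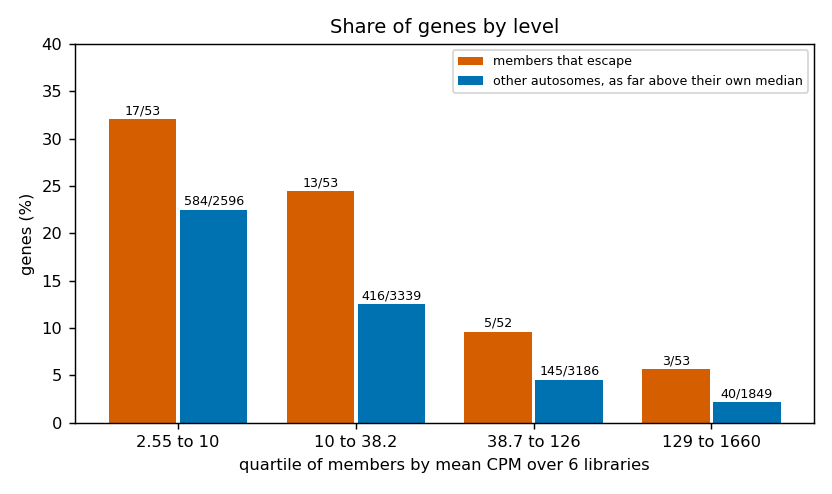
Share of genes (vertical axis, percent) by range of mean CPM (horizontal axis, the quartiles of the members); orange bars are members that escape and blue bars genes of the other autosomes that lie as far above their own median in both libraries, with the counts above each bar. Orange falls from 32.1% to 5.66% and blue from 22.5% to 2.16%.

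Escape also differed by gene kind and length. Of 12 pseudogenes 9 escaped, 2 were halved and 1 was mixed, and 28 of 185 protein-coding members escaped. Processed pseudogenes share reads with near-identical parent genes elsewhere, so their levels are uncertain. All 9 lay in the lower 2 quartiles of level and in the shortest quartile of gene length. In that quartile 17 of 53 members escaped, against 8, 5 and 8 in the next 3 quartiles, and without the pseudogenes 7 coding genes of the shortest quartile did. Among protein-coding members with a mean of at least 10 CPM, 17 of 150 escaped.

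By function, lists of members' known roles differed in how many of their members escaped. The lists were drawn broadly, and some members stand in them with another main role (Cand2, Rimklb and Ninj2 in the secretory list, Tapbpl under apoptosis, Pianp under mRNA, Brk1 and Cops7a under cell cycle). Of 15 lists with at least 3 members, 6 had no member that escaped, and over all members 18.0% did. No list was tested, because the members and lists were chosen with these levels known. Escape also fell from 32.1% in the lowest to 5.66% in the highest quartile of expression level. The lists were not matched for expression level, and its part in their differences was not tested.

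All 9 members of the list on making ribosomes were halved, with medians of -0.94 and -0.96, among them Nop2 and Bms1, which mature ribosomal RNA. Nop2 had 306 and 275 CPM in knockouts 2 and 3 against 568, 519.5, 572 and 613 CPM, and Bms1 had 291 and 297 CPM against 553, 517, 576 and 591 CPM. All 8 DNA repair and replication members were halved as well, with medians of -1.08 and -0.88. Fancd2, a core protein of the Fanconi anaemia pathway, had 97.6 and 91.7 CPM against 152, 179, 158 and 166 CPM. Rad18, a ubiquitin ligase of damage bypass and the second member from the start of the stretch, had 41.1 and 52.8 CPM against 94.4, 99.2, 92.4 and 83.7 CPM.

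In the list on mRNA processing 11 of 12 members were halved, with Wbp11, a splicing factor, at 43.5% and 43.7%, and Tatdn2 was the exception. Among ubiquitin, protein folding, autophagy and peroxisome genes 11 of 12 were halved and none escaped. Usp5, which dismantles free ubiquitin chains, had 199 and 197 CPM against 354.5, 426, 405.5 and 474.5 CPM. The import receptor Ipo8 had 43.1% and 48.3%. Of 13 chromatin and cofactor genes 9 were halved, 1 was below and 3 were mixed, and all 13 were lower in both clones than in the other 4, with Atf7ip, a partner of the methyltransferase Setdb1, at 54.6% and 53.2%.

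Cell cycle genes had medians of -1.11 and -1.13 and none of 10 escaped. Foxm1, a factor that drives mitotic genes, kept 55.8% and 56.7%. Of 4 members known from pluripotent or germ cells none escaped. Gdf3, a TGF-beta family ligand of stem cells, had 101 and 84.4 CPM against 204, 224, 213 and 231 CPM, and Tead4, a transcription factor of the Hippo pathway, kept 39.1% and 24.8%. Both genes were lowest in knockout 3, the clone with the lowest pluripotent marker median, whose part in these values was not tested.

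Signalling genes were spread over all classes: of 21 members, 6 escaped, 8 were halved, 2 were below and 5 were mixed. Besides Cxcl12, Tnfrsf1a and Ltbr, the escaping members of the list were Camk1, a calcium-dependent kinase, Wnt5b, a secreted Wnt ligand, and Rassf8, a protein with a Ras association domain, at 84.5% and 88.3%, 97.7% and 94.1%, and 72.2% and 96.6%.

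In the secretory and membrane traffic list 6 of 17 members escaped (Jagn1, Emc3, Sec13, Cand2, Dennd5b and Bicd1) and 10 were halved. Erc1, a scaffold of vesicle release, had 50.1% and 44.6%, M6pr, the mannose-6-phosphate receptor, 52.5% and 52.1%, and Ergic2, of the intermediate compartment, 50.7% and 50.4%. Among surface, adhesion and matrix genes 4 of 12 escaped and 2 were below, so that the list held both Mgp and A2m. Cd9, a tetraspanin abundant in stem cells, had 118 and 90.9 CPM against 312, 336, 272 and 314 CPM. Tspan9, another tetraspanin, kept 65.3% and 67.4%.

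Of 15 metabolic and mitochondrial members, 10 were halved, 2 were below, 2 were mixed and 1, Bcat1, escaped. Atp6v1e1, a subunit of the proton pump of acidic vesicles, kept 63.2% and 61.9%. Gapdh was measured at 30.2 and 29.9 CPM against 48.7, 43.3, 40.5 and 47.0 CPM, a level that is uncertain because reads shared with its many processed copies were not counted. Of 10 cytoskeletal genes, 7 were halved and Ttll3, which adds glycine to tubulin, escaped at 88.1% and 81.1%. Arpc4, a subunit of the Arp2/3 complex, had 129 and 130.3 CPM against 203, 201, 213 and 209 CPM.

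Among 12 sequence-specific transcription factors Foxj2, Etv6 and Bhlhe41 escaped and 6 were halved, with Zfp384 at 51.4% and 47.1%. In the apoptosis list 3 of 6 escaped (Tnfrsf1a, Ltbr and Tapbpl), while Bid, a killer protein of the Bcl2 family, kept 32.0% and 36.2% and Bcl2l13, of the mitochondrial membrane, 51.9% and 55.6%. Of 5 immune-cell genes only Tapbpl, an editor of peptides on MHC class I, escaped in both clones, at 117% and 123%, and the other 4 were mixed. The phosphatase Ptpn6 had 43.04% and 34.34%.

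Along the chromosome, halved members occurred from the first to the last window of 5 Mb. The medians were highest in the first window (110 to 115 Mb), at 63.4% and 63.1% of the other clones, where 10 of 30 members escaped. In the other 7 windows they lay between 41.6% and 56.9%, and each held at least 1 member that escaped. Just outside the start limit, Arl8b, a lysosomal GTPase, had log2 ratios of -0.34 and -0.36 and Edem1, which helps degrade misfolded glycoproteins, -0.42 and -0.30. Just inside, the pseudogene Gm15519 had 0.16 and -0.08 and Rad18 -1.16 and -0.80. At the far end 2810474O19Rik had -0.97 and -0.51 and Bicd1 -0.26 and 0.45. At the count minimum, Gpr162 and 4732416N19Rik were just inside, with totals of 208 and 223, and Casc1 and C1rl just outside, with 194 and 198. Their ratios were 0.41 and 0.45, -0.75 and -1.01, 0.40 and 0.20, and -0.75 and -1.43 in knockouts 2 and 3.

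**Figure D5:**
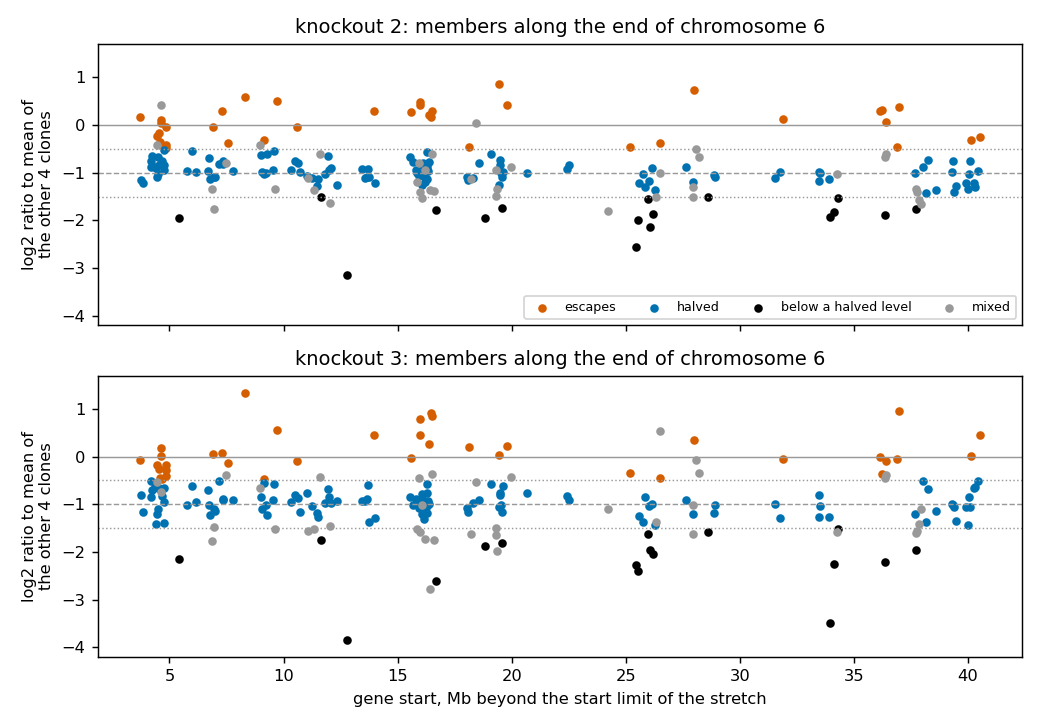
Log2 ratio of each member (vertical axis) in knockout 2 (top) and knockout 3 (bottom) against the distance of its start from the start limit of the stretch in Mb (horizontal axis); colours give the class, the dashed line marks -1 and dotted lines -0.5 and -1.5. Halved members lie along the whole 37.0 Mb, and escaping members are most dense in the first window, where 10 of 30 escape.

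In the contrast the study labels, all 3 knockout against all 3 non-targeted clones, the knockout group includes knockout 1, in which the members' median was -0.04. That contrast holds the libraries that chose the members, so nothing is read from its counts. edgeR's quasi-likelihood test called 0 of 211 members and 0 of 14664 genes (0%) at an adjusted p of 0.05, limma voom 0 members (0.00682% of genes fell), and DESeq2 38 members that fell (3.35% of genes) and 3 that rose (5.77%). At an unadjusted p under 0.05, edgeR had 78 members that fell and 6 that rose, of 1586 and 2055 genes in all, and limma voom had 129 and 6, of 1844 and 1822. Without knockout 1, edgeR called 169 of the 211 members and 4404 genes in all, and DESeq2 164 members and 4122 genes. Those fits set the 2 clones that chose the members against the non-targeted clones, so nothing is read from these counts either. Without knockout 2 or 3, DESeq2 called 5 members of 307 genes and 6 of 262. Without non-targeted clones 1, 2 and 3 it called 4 of 189, 10 of 768 and 1 of 127. In 71 members all knockout clones were lower than all non-targeted clones (15.7% of all genes were), and in 7 all were higher (15.1%).

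The 5 members with the smallest p among the DESeq2 falls were Tmem40, Srgap3, Irak2, Parp11 and Tuba3a, and their values are given as a description. Tmem40, a transmembrane protein, had 8.27, 6.94 and 5.02 CPM in knockouts 1 to 3, where non-targeted clones 1 to 3 had 21.1, 22.04 and 21.8 CPM, so that the groups of 3 did not overlap. Its means were 6.74 ± 1.63 and 21.6 ± 0.486 CPM (SD, n = 3). Srgap3, a GTPase-activating protein of the Slit and Robo pathway, had 20.3, 11.6 and 12.2 CPM against 30.7, 29.3 and 31.2 CPM. Irak2, a kinase below interleukin-1 receptors, had 38.6, 26.7 and 19.4 CPM against 56.3, 53.4 and 59.4 CPM, and Parp11, a mono-ADP-ribosyltransferase, 15.2, 11.3 and 10.3 CPM against 21.8, 20.4 and 22.6 CPM. In these 4 genes knockout 1 lay between knockouts 2 and 3 and the non-targeted clones. The 3 that DESeq2 called higher were Cxcl12, Tnfrsf1a and Cacna1c, whose values in each library are given above.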

How the data were processed

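Polyadenylated RNA of 6 clones (3 Tet1 knockout, 3 non-targeted) was sequenced. The authors deposited raw counts (whole numbers, not normalized) for each gene, with its length in bases. According to the submitters' processing notes, HISAT2 2.1.0, featureCounts 1.5.3 and DESeq2 1.18.1 were used with mm10; per the file headers, counting used featureCounts 1.6.2 with a reverse-stranded setting over whole genes of GENCODE M15. Reads in more than a single gene or place were not counted, and all 103 genes nested within another in the stretch are at 0. Libraries were scaled with TMM (edgeR 4.0.16, R 4.3.3); genes passing filterByExpr (14664 of 25600 with a count) entered edgeR's quasi-likelihood test with Benjamini-Hochberg adjustment, and with DESeq2 1.42.0 and limma 3.58.1 as alternatives. The comparison of 2 clones with 4 has no test. The members, classes and lists were chosen with earlier results of these data known. Named genes follow a rule: the 12 escaping members with at least 10 CPM and the highest lower ratio, the 10 most abundant members, 8 below a halved level, the 3 most abundant and all escaping genes of each list, DESeq2's leading calls and genes at each threshold; a few genes that the rule takes are not reported here. The edgeR and DESeq2 fits were tested on simulated counts, and the limma fit was not.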

Additional observations from a re-analysis of the deposited data

How the results depend on the processing

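No median changed direction under the alternatives run. No named member with a mean log2 ratio beyond 0.5 in size in knockouts 2 and 3 did so either. Smaller ratios were not checked for this, and those near no difference, such as that of Cand2, can change sign. The medians in knockouts 2 and 3 were -0.93 and -0.92 with scaling to total counts, -0.90 and -0.89 with 2 CPM added, and -1.003 and -0.99 at a minimum total of 1000 counts. At that minimum 17 of 148 members escaped and 11 were below a halved level. Leaving out knockout 1 or a non-targeted clone gave 35 to 39 escaping, 117 to 123 halved and 13 to 19 below-level members. The medians then lay between -0.97 and -0.95 in knockout 2 and between -0.95 and -0.93 in knockout 3. Judged on knockout 2 alone, where no member can be mixed, 42 escaped, 144 were halved and 25 were below. On knockout 3 alone these were 48, 129 and 34. A limit of -0.35 or -0.7 gave 27 or 54 escaping members, and 6 or 4 function lists with no escaping member. Members called between all knockout and all non-targeted clones were 41 in DESeq2 (of 1247 genes called), 4 in edgeR with no filter (of 159) and 0 to 169 in edgeR with a library left out (169 of 4404, without knockout 1). Of 840 values of 84 named members, 833 moved by less than the SD of the gene's log2 ratio over knockout 1 and the 3 non-targeted clones, and 7 by more. That limit is wide for genes that vary between those 4 clones, such as A2m. Deviations of clones with the same replicate number correlated at 0.46, 0.11 and -0.02, and those with unlike numbers at -0.46 to 0.46. Equal numbers thus gave no sign of pairing. With the replicate number as a block edgeR called 0 members. The counting intervals of 22 of the 38 escaping genes lie above the 70.7% limit in both clones; those of others reach it, also for abundant genes such as Sec13 and Etv6. The classes rest on 2 clones of 1 line, and counts of reads cannot show whether DNA differs.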

Other observations

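Escaping members were unevenly placed near the start of the stretch. Between Brpf1 and Sec13 (chromosome 6, 113307137 to 113740743, GRCm38), an interval chosen after the values were seen, 9 of 19 members escaped, 8 were halved and 2 were mixed. The medians there were -0.45 in knockout 2 and -0.54 in knockout 3, that is 73.4% and 68.8% of the other clones. Outside it 29 of 192 members escaped and the medians were -0.99 and -0.98. The members that escaped in the interval were Camk1, Ttll3, Jagn1, Creld1, Prrt3, Emc3, Tatdn2, Sec13 and the RNA gene Gm26982. Among their neighbours Brpf1, a scaffold of histone acetyltransferase complexes, was at -0.42 and -0.54, and Arpc4 at -0.67 and -0.66. Ogg1 and Vhl are named after their values were seen. Ogg1, a glycosylase that removes oxidised guanine, was halved at 11.1 and 10.2 CPM against 21.3, 23.9, 23.4 and 27.8 CPM. Vhl, the recognition subunit of the ligase that degrades hypoxia-inducible factors, had 23.8 and 21.96 CPM against 44.7, 46.6, 40.2 and 41.3 CPM. Halved and escaping genes were thus mingled within the interval, in part in runs. Creld1, Prrt3 and Emc3 escaped in a row, and the next members, Fancd2, Brk1, Vhl and Irak2, were halved.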
